A study of Mus musculus with 8 samples.

Results

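The glycolysis enzymes described here are 10 genes, Hk1, Hk2, Gpi1, Pfkl, Aldoa, Gapdh, Pgk1, Eno1, Pkm and Ldha, taken by symbol from the 24411 genes of the deposited tables. All 10 were found, and all 10 are among the 13177 genes with enough reads to test. Bulk RNA sequencing covered 8 libraries of common myeloid progenitors, cells that give rise to myeloid, erythroid and megakaryocyte lineages, sorted from wild-type C57BL/6 bone marrow into 4 populations with 2 libraries each. By the sort gates in the labels all 4 populations were KIT+ and CD16/32-. Cells of the CD34bright gate were CD41+ CD9+, and those of the CD41-CD9- gate were CD34dim and lacked both markers. The CD48bright and CD48dim populations were CD34dim CD41+ CD9+ and differed in CD48, and no treatment or engineered allele is named for any population. Whether paired libraries come from different mice is not labelled, so p-values reflect a spread between libraries that may be technical only.

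Glycolysis splits glucose into pyruvate in the cytosol. Its first steps spend ATP to phosphorylate and split the sugar, its later steps return ATP and NADH, and lactate dehydrogenase can turn pyruvate into lactate and so renew NAD+. Several of these genes are known targets of the hypoxia-inducible factors and of Myc in other cells, and blood stem cells are known for relying on glycolysis more than many of their progeny do. Only RNA was measured here, so neither enzyme amounts nor glucose use is shown, and fewer cells of a type and less RNA per cell cannot be told apart in bulk libraries.

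Promoters of 3 of the genes are printed because Gapdh and Pgk1 had the widest differences between CD34bright and CD48dim cells outside the enolase gene, and because Ldha held the most matches to the motif searched. Each line gives the 250 bases before an annotated start, 5′ to 3′ on the strand of the gene, from RefSeq on GRCm38.p6, with matches to ACGTG or GCGTG on either strand in capitals. These letters are the core recognised by the hypoxia-inducible factors, and CACGTG, which contains ACGTG on both strands, is the E-box bound by Myc.
Gapdh (chr6:125165774-125166023, minus strand): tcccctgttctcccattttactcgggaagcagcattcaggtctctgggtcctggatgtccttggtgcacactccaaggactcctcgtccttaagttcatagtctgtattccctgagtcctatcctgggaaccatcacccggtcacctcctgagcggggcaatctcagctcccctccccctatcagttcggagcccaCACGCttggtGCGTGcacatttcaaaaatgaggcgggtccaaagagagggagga
Pgk1 (chrX:106186850-106187099, plus strand): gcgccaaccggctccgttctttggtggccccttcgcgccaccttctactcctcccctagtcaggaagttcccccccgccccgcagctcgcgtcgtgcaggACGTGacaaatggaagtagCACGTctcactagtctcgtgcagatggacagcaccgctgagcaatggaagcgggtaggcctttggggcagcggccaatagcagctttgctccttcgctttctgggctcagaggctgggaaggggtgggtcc
Ldha (chr7:46845554-46845803, plus strand): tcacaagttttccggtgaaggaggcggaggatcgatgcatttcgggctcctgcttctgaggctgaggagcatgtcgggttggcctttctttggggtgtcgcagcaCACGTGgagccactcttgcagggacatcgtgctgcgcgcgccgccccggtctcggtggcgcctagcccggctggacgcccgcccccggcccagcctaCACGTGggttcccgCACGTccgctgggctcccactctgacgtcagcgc
The Gapdh and Ldha windows lie within the annotated span of their gene, before an inner start. The Gapdh and Pgk1 windows hold 2 matches each, and the Ldha window holds 5, of which 4 come from 2 CACGTG words.

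In all, RefSeq lists 17 such windows for the 10 genes. A core match stood in 13 of the 17 windows, while 38.6% of 32817 windows over all genes held one. Some of the 17 windows overlap: 2 windows of Aldoa share the same 1 match, and 2 windows of Eno1 share the same 2. By gene, 9 of the 10 held a match in at least 1 window, the exception being Gpi1. Some of these genes have several windows, and no share by gene was worked out over all genes. ACGTG alone was in 16.6% of all windows and GCGTG in 28.1%. CACGTG was in 6.02% of all windows and, among the 10 genes, in Ldha only. A match describes letters in a window and does not show that a factor binds there.

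The libraries held 7237587 to 20632005 expected counts, the estimated read numbers deposited per gene. Values below are CPM, counts scaled to the normalised library total, and TPM, which also corrects for transcript length, wherever genes are compared with each other. Among the sort markers, the RNA of Itga2b, Cd9, Cd48 and, in CPM only, Cd34 followed the gates. Itga2b, which encodes CD41, was at 2.18 and 2.83 CPM in CD41-CD9- cells and at 64.3 to 155 CPM in the other 6 libraries. Cd48 was at 16.9 and 35.8 CPM in CD48dim cells and at 157 to 246 CPM elsewhere. Cd34 was highest in CD34bright cells, at 461 and 510 CPM. Fcgr3, which encodes a marker that every gate excluded, still had counts in every library, from 3.02 to 87.3 CPM. Its paired libraries differed, with 87.3 and 22.7 CPM in CD48bright and 39.5 and 3.02 CPM in CD48dim. Kit, which encodes the marker that every gate selected, ran from 240 to 1226 CPM. All 10 mature neutrophil markers were detected in every library, and their summed level was 746 and 51.4 CPM in CD41-CD9- libraries, 4330 and 646 CPM in CD48dim libraries, and 78.3 to 144 CPM in the other 4. The 6 haemoglobin and late erythroid markers lay between 4.74 and 35.9 CPM in sum, except for 246 CPM in CD48dim replicate 1. The 4 B cell markers summed to 91.6 and 63.0 CPM in CD41-CD9- libraries and 11.5 to 47.3 CPM in the other 6. The part of these cells in the results below was not tested.

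The 10 enzymes together held 6811 and 6446 CPM in CD34bright libraries, 4159 and 2655 CPM in CD41-CD9-, 5638 and 3479 CPM in CD48bright, and 3625 and 2081 CPM in CD48dim. Gapdh alone made up 34.7% to 60.3% of this sum. The sum was higher in both CD34bright libraries than in any other library. Per length, Gapdh averaged 3903 TPM over the 8 libraries, Ldha 905 TPM, and the other 8 genes between 19.3 TPM for Hk2 and 277 TPM for Aldoa.

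**Figure D1:**
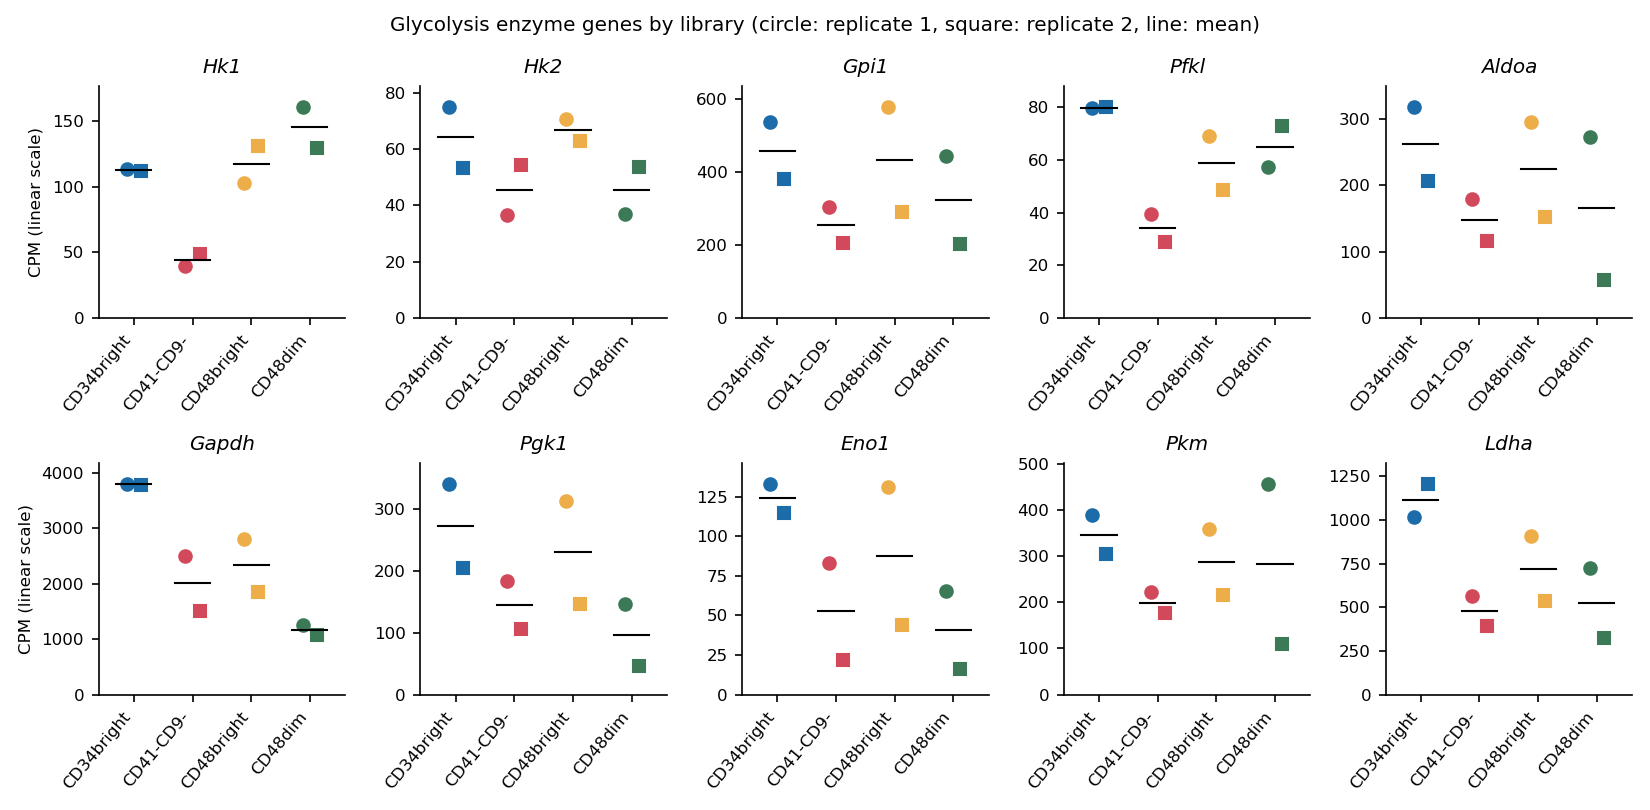
CPM (linear axis from 0) of the 10 glycolysis enzyme genes in each library, grouped by sorted population; the line is the mean of the 2 libraries. Hk1 stands at 39.6 and 48.7 CPM in CD41-CD9- cells, below the 6 other libraries, and Gapdh falls into a CD34bright pair at 3808 and 3783 CPM and a CD48dim pair at 1257 and 1067 CPM.

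Hk1 and Hk2 encode hexokinases, which trap glucose in the cell by phosphorylating it. Hk1 (NCBI gene 15275, chr10:62268855-62379920) was at 114 and 112 CPM in CD34bright, 39.6 and 48.7 CPM in CD41-CD9-, 103 and 131 CPM in CD48bright, and 160 and 130 CPM in CD48dim libraries. Both CD41-CD9- libraries lay below every other library, and the order of the means was CD48dim, CD48bright, CD34bright, CD41-CD9-, with the first 2 overlapping and the second overlapping the third. Hk2 (15277, chr6:82725025-82774454), the isoform known as inducible, was at 74.9 and 53.4 CPM in CD34bright, 36.7 and 54.2 CPM in CD41-CD9-, 70.8 and 62.9 CPM in CD48bright, and 37.1 and 53.6 CPM in CD48dim. Its populations overlapped except that CD48bright lay above both CD41-CD9- and CD48dim. The antisense gene Hk1os overlaps Hk1 and shares its reads without strand, but held 235 counts in all libraries against 11419 for Hk1.

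Gpi1 encodes glucose-6-phosphate isomerase, which turns the phosphorylated glucose into a fructose phosphate. It (14751, chr7:34201327-34230336) was at 536 and 379.8 CPM in CD34bright, 303.6 and 207 CPM in CD41-CD9-, 577 and 289 CPM in CD48bright, and 444 and 202 CPM in CD48dim. Only CD34bright and CD41-CD9- did not overlap. Pfkl (18641, chr10:77986947-78009807), the liver-type subunit of phosphofructokinase, the committing step, was at 79.6 and 80.1 CPM in CD34bright, 39.5 and 28.7 CPM in CD41-CD9-, 69.0 and 48.6 CPM in CD48bright, and 57.2 and 72.8 CPM in CD48dim. As for Hk1, both CD41-CD9- libraries were below all others, and the 2 CD34bright libraries were above all others. Aldoa (11674, chr7:126795234-126800994), the aldolase that splits the sugar, was at 318 and 207 CPM in CD34bright, 179.7 and 115 CPM in CD41-CD9-, 296 and 153 CPM in CD48bright, and 272 and 57.7 CPM in CD48dim. The CD48dim libraries of Aldoa spanned most of the range of all 8.

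Gapdh and Pgk1 carry out the steps that first return energy, as NADH and ATP. Gapdh (14433, chr6:125161852-125166467) was at 3808 and 3783 CPM in CD34bright, 2506 and 1507 CPM in CD41-CD9-, 2815 and 1852 CPM in CD48bright, and 1257 and 1067 CPM in CD48dim. CD34bright lay above and CD48dim below every other library, and the neighbours CD48bright and CD41-CD9- overlapped. Pgk1 (18655, chrX:106187100-106203699), phosphoglycerate kinase, was at 342 and 205 CPM in CD34bright, 184 and 106 CPM in CD41-CD9-, 313 and 147 CPM in CD48bright, and 147 and 46.4 CPM in CD48dim. It had the same order of means as Gapdh, but CD34bright overlapped CD48bright and CD41-CD9- overlapped CD48dim.

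Eno1 and Pkm encode enolase and pyruvate kinase, which make phosphoenolpyruvate and then pyruvate. Eno1 (13806, chr4:150236708-150248879) was at 133 and 115 CPM in CD34bright, 83.3 and 21.8 CPM in CD41-CD9-, 131 and 43.9 CPM in CD48bright, and 65.8 and 15.9 CPM in CD48dim. Pkm (18746, chr9:59656576-59679372) was at 389 and 304 CPM in CD34bright, 222 and 176 CPM in CD41-CD9-, 358 and 216 CPM in CD48bright, and 457 and 109 CPM in CD48dim. The highest and the lowest Pkm values of the series were thus the 2 CD48dim libraries. Ldha (16828, chr7:46842274-46855627), the subunit of lactate dehydrogenase associated with lactate production, was at 1018 and 1208 CPM in CD34bright, 564 and 391 CPM in CD41-CD9-, 905 and 535 CPM in CD48bright, and 727 and 327 CPM in CD48dim. Both CD34bright libraries of Ldha were above the other 6, which overlapped one another. Genes annotated as overlapping Pkm and Ldha were not analysed here.

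The 8 libraries were compared in 1 fit with edgeR's quasi-likelihood test, with Benjamini-Hochberg adjustment over all 13177 genes and a call at an adjusted p below 0.05. Hk1 was the single enzyme called. It was lower in CD41-CD9- cells, which averaged 44.1 ± 6.43 CPM, against 145 ± 21.8 CPM in CD48dim cells (SD, n = 2 libraries each), a log2 fold change of -1.72 ± 0.32 (SE, edgeR adjusted p = 0.0211). That is 1 of 10 enzymes in a comparison that called 4.02% of all genes. The call was not made without CD34bright replicate 1 (adjusted p = 0.0561) or replicate 2 (adjusted p = 0.063), without CD41-CD9- replicate 1 (adjusted p = 0.22) or replicate 2 (adjusted p = 0.153), or with the 4 libraries of these populations fitted alone (adjusted p = 0.155), while the log2 fold change stayed between -1.87 and -1.54 throughout. Against CD34bright and CD48bright the CD41-CD9- values of Hk1 also stood apart, with log2 fold changes of 1.35 ± 0.32 for CD34bright over CD41-CD9- (edgeR adjusted p = 0.105) and -1.41 ± 0.32 for CD41-CD9- over CD48bright (edgeR adjusted p = 0.146), neither of which was called.

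In the test for any difference among the 4 populations 0 of 10 enzymes were called by edgeR, where 2.44% of all genes were. Hk1 came nearest (adjusted p = 0.0698), and 3 enzymes, Hk1, Gapdh and Pfkl, had an unadjusted p below 0.05, as did 16.8% of all genes. DESeq2 called 2 in this test, Hk1 and Gapdh, and 13% of all genes. Without CD48dim replicate 1 the count became 8, the exceptions being Hk2 and Gpi1, in a fit that called 24.7% of all genes, and without CD48dim replicate 2 it became 1, Hk1, with 9.11% of all genes.

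CD34bright cells had a higher fitted level than CD41-CD9- cells for all 10 enzymes. The log2 fold changes ran from 0.50 for Hk2 to 1.35 for Hk1, with a median of 0.92, against a median of 0.0042 over all genes tested, and all 10 stayed positive in the 14 alternatives run. The 2 CD34bright libraries were above the 2 CD41-CD9- libraries for 9 of 10 enzymes, Hk2 being the exception, where 25.6% of all genes were separated in that direction. No single enzyme passed edgeR's test, which called 0.842% of all genes. Hk1, Pfkl (1.23 ± 0.36) and Ldha (1.22 ± 0.46) had an unadjusted p below 0.05, as did 9.91% of all genes. DESeq2 called Hk1 and Pfkl (DESeq2 adjusted p = 0.00381 and 0.0487), and edgeR called these and Ldha when the 4 libraries were fitted alone (edgeR adjusted p = 0.00518, 0.0155 and 0.0205). Of all genes, DESeq2 called 4.74% and the fit of 4 libraries 8.7%. Leaving out either CD48dim library also gave these 3 calls, with 5.44% and 5.46% of all genes.

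For CD34bright over CD48dim, 9 of 10 log2 fold changes were positive, with a median of 0.59 against -0.07 over all genes tested. The log2 fold change of Gapdh was 1.71 ± 0.42 (edgeR adjusted p = 0.0921), that of Eno1 1.60 ± 0.79 (edgeR adjusted p = 0.31; 0.51 ± 0.41 with Eno1b added), that of Pgk1 1.495 ± 0.59 (edgeR adjusted p = 0.222) and that of Ldha 1.08 ± 0.46 (edgeR adjusted p = 0.249). Hk1 had the only negative value, -0.37 ± 0.31, with both CD34bright libraries below both CD48dim libraries. Without CD48dim replicate 2, Aldoa (-0.048) and Pkm (-0.39) were negative as well. The 5 enzymes Gapdh, Pgk1, Eno1, Ldha and Pfkl were higher in both CD34bright libraries, where 23.1% of all genes were. None of the 10 enzymes was called by edgeR in the fit described above, against 0.577% of all genes, and 3 had an unadjusted p below 0.05, as did 19% of all genes. With no filter on low counts edgeR called 3, Gapdh, Pgk1 and Eno1, and 5.51% of all genes. DESeq2 called Gapdh (DESeq2 adjusted p = 0.00054) and 9.77% of all genes. Without CD48dim replicate 1 the count became 6 (Aldoa, Gapdh, Pgk1, Eno1, Pkm and Ldha), while 28.4% of all genes were called.

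For CD41-CD9- over CD48dim, the pair in which Hk1 was called, 4 log2 fold changes were positive and 6 negative with a median of -0.15. Over all genes tested the median was -0.06, with 47.4% positive. The 2 enzymes Hk1 and Pfkl (-0.93 ± 0.36) had an unadjusted p below 0.05, as did 19.5% of all genes. Limma-voom called Hk1 and 3.57% of all genes there, and 0 enzymes in the other tests. In the pairs described next edgeR called no enzyme. For CD34bright over CD48bright 8 of 10 log2 fold changes were positive with a median of 0.26, against 48.7% positive and a median of -0.012 over all genes tested. EdgeR called 0 enzymes and 0% of all genes in this pair, and DESeq2 called 0 enzymes and 0.281% of all genes. No enzyme had an unadjusted p below 0.05, against 1.99% of all genes. For CD41-CD9- over CD48bright all 10 were negative, from -1.41 to -0.22 with a median of -0.64. Over all genes tested the median was -0.016, with 48.7% positive. The 3 enzymes Hk1, Hk2 and Pfkl were lower in both CD41-CD9- libraries, where 20.4% of all genes were. Without CD48bright replicate 1 the values of Gapdh and Eno1 in this pair were 0.11 and 0.26, and without CD41-CD9- replicate 2 that of Gapdh was 0.10. EdgeR called none of the 10 in this pair, against 0.212% of all genes. Hk1 alone had an unadjusted p below 0.05, as did 7.12% of all genes, and DESeq2 called it (DESeq2 adjusted p = 0.00379) with 2.78% of all genes. For CD48bright over CD48dim 8 of 10 were positive with a median of 0.45, led by Pgk1 at 1.25 ± 0.59 and Gapdh at 1.01 ± 0.41. Over all genes tested 48.2% were positive, with a median of -0.034. Hk2, Gapdh and Pgk1 were higher in both CD48bright libraries, where 20.2% of all genes were, Pgk1 by no more than 147.3 against 147.1 CPM at the nearest. EdgeR called 0 enzymes and 0.387% of all genes in this pair, and DESeq2 called 0 enzymes and 5.76% of all genes. The 1 enzyme at an unadjusted p below 0.05 was Gapdh, where 14.6% of all genes were. Without CD48dim replicate 1 there were 4 calls in this pair (Aldoa, Pgk1, Eno1 and Pkm), with 23.3% of all genes, and 4 for CD41-CD9- over CD48dim (Hk1, Pfkl, Aldoa and Pgk1), with 23.9% of all genes. Comparisons that share a population share its libraries and are not independent.

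**Figure D2:**
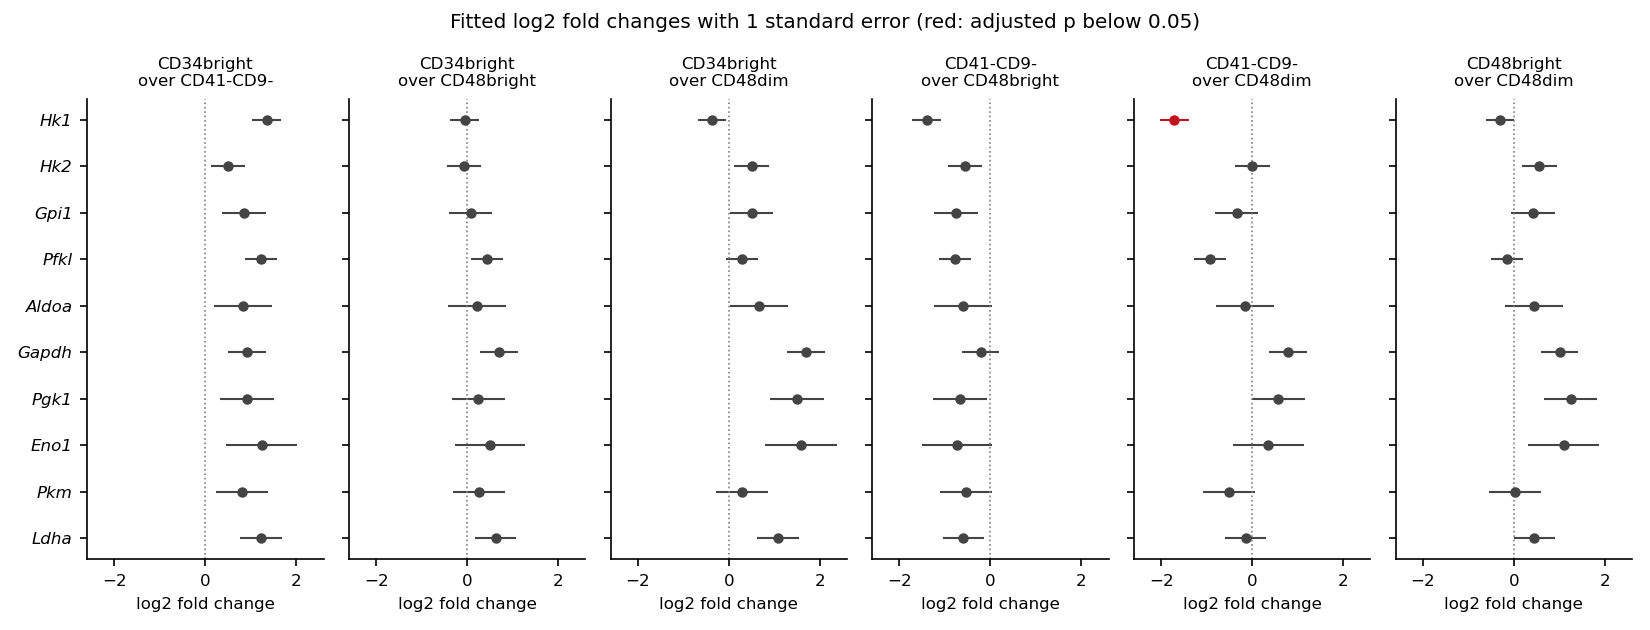
Fitted log2 fold changes (x axis) of the 10 enzymes (rows, in the order of the pathway) for the 6 pairs of populations, with 1 standard error; red marks an adjusted p below 0.05. All 10 points lie right of 0 for CD34bright over CD41-CD9- and left of 0 for CD41-CD9- over CD48bright, and the red point is Hk1 at -1.72 for CD41-CD9- over CD48dim.

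Several steps are shared by isozymes outside the 10 genes. Among hexokinases, Hk3, the form known from white blood cells, had the highest TPM in 6 libraries, with 106 ± 14.0 TPM in CD34bright, 43.0 ± 6.80 TPM in CD41-CD9- and 123 ± 15.5 TPM in CD48bright cells (SD, n = 2 each). In CD48dim cells Hk1 was the highest hexokinase, at 70.6 and 84.9 TPM, against 61.0 and 65.5 TPM for Hk3. Hk1 thus made up 49.1% and 48.1% of the summed TPM of Hk1, Hk2, Hk3 and Hkdc1 in CD48dim libraries and 23.6% to 30.4% in the other 6. Hkdc1 was listed at 0 TPM in all libraries. Hk3 had log2 fold changes of 1.58 ± 0.34 for CD34bright over CD41-CD9- (edgeR adjusted p = 0.0774) and 1.15 ± 0.33 for CD34bright over CD48dim (edgeR adjusted p = 0.131), and edgeR did not call it. DESeq2 called Hk3 in both pairs, for CD41-CD9- over CD48bright, for CD48bright over CD48dim and for any difference.

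**Figure D3:**
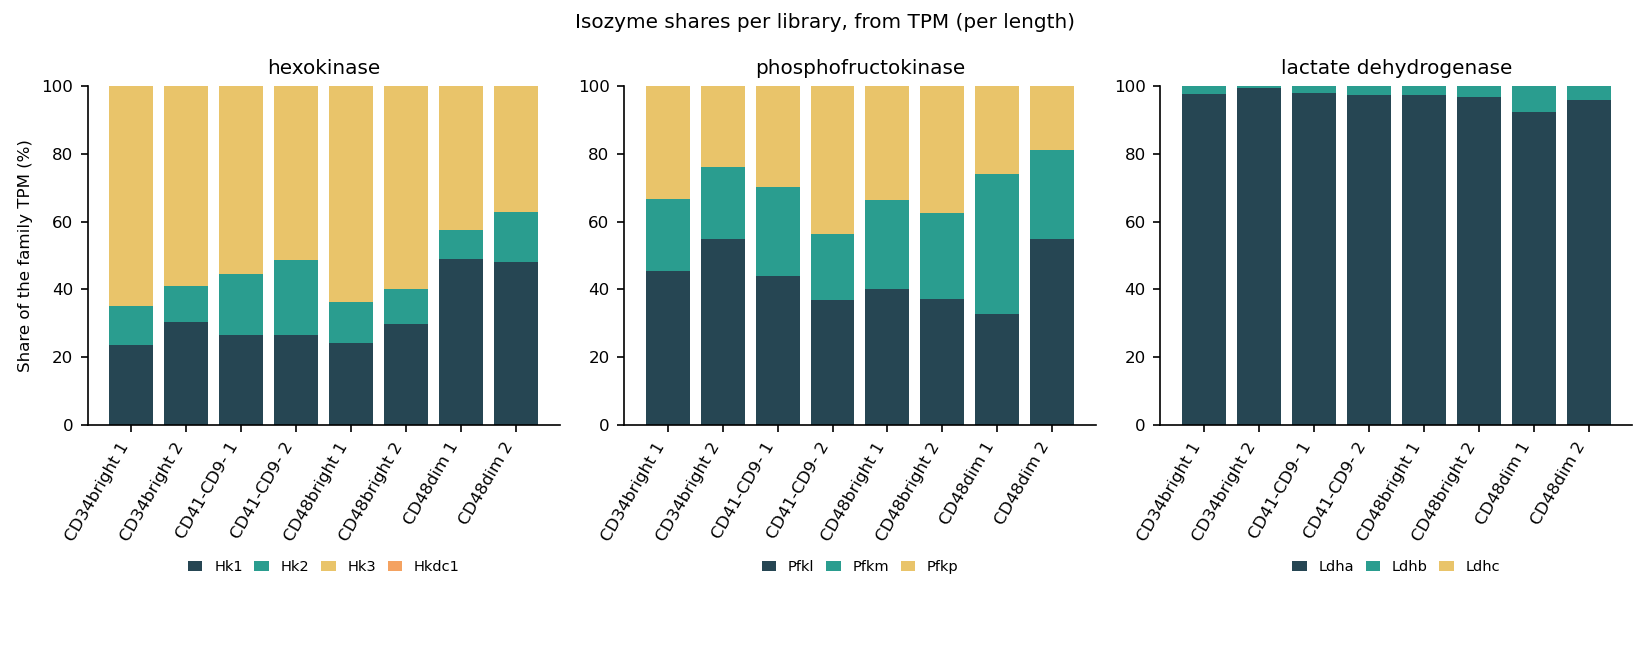
Share of each isozyme in the TPM of its family (y axis, percent) in each library, for hexokinases (Hk1, Hk2, Hk3 and Hkdc1), phosphofructokinases and lactate dehydrogenases. Hk1 takes 49.1% and 48.1% in the CD48dim libraries and at most 30.4% in the others, and Ldha takes most of the third family everywhere.

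For phosphofructokinase the 3 subunit genes were mixed: Pfkl made up 50.2 ± 6.59% of their TPM in CD34bright, 40.4 ± 4.87% in CD41-CD9-, 38.7 ± 2.11% in CD48bright and 43.8 ± 15.8% in CD48dim cells (SD, n = 2 each). The muscle-type subunit gene Pfkm averaged 30.8 ± 7.25 TPM in CD48dim and 10.5 ± 2.61 to 19.7 ± 1.34 TPM in the other populations. In CPM Pfkm overlapped between CD48dim (53.8 and 26.0 CPM), CD34bright (27.6 and 23.0 CPM) and CD48bright (33.2 and 24.6 CPM). Its log2 fold change for CD41-CD9- over CD48dim, -1.45 ± 0.49, was not called by edgeR (adjusted p = 0.148) but by DESeq2. The platelet-type gene Pfkp averaged between 16.7 and 27.4 TPM. The other steps rested mostly on 1 gene: Aldoa made up 97.3% to 99.4% of aldolase TPM as population means, Pkm 95.9% to 99.9% of pyruvate kinase TPM, and Ldha 94.1% to 98.5% of lactate dehydrogenase TPM. Ldhb, which encodes the other common lactate dehydrogenase subunit, was at 19.5 and 4.62 CPM in CD34bright, 9.52 and 8.48 CPM in CD41-CD9-, 17.9 and 13.8 CPM in CD48bright, and 45.7 and 10.9 CPM in CD48dim. Aldoc stayed between 2.61 and 11.1 CPM.

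Both enzymes of the pathway between the listed steps were measured as well. Pgam1, a phosphoglycerate mutase, was at 802 and 502 CPM in CD34bright, 307 and 320.0 CPM in CD41-CD9-, 537 and 403 CPM in CD48bright, and 246 and 85.3 CPM in CD48dim. Its order and its log2 fold change for CD34bright over CD48dim, 1.98 ± 0.50 (edgeR adjusted p = 0.0972), resembled those of Gapdh. EdgeR did not call it, and DESeq2 called it in this pair, for CD48bright over CD48dim and for any difference. Tpi1, triosephosphate isomerase, was at 218 and 124 CPM in CD34bright, 97.6 and 74.4 CPM in CD41-CD9-, 180.2 and 117 CPM in CD48bright, and 173 and 7.01 CPM in CD48dim. The CD48dim libraries of Tpi1 were thus the most unequal pair of that gene. Of the 21 other glycolysis genes and paralogs, 15 were tested and edgeR called 1 in any pair, Eno2, which encodes the enolase known from neurons. That call was for CD41-CD9- over CD48dim, where 4.02% of all genes were called. Eno2 had no count in either CD41-CD9- library and 1.69 and 14.6 CPM in CD48dim, at least 68.0-fold lower in CD41-CD9- with 3 counts over the group as the floor (edgeR adjusted p = 0.0444). Against CD48dim replicate 1 alone the bound is 14.1-fold, and the call was made in 5 of 14 alternatives, not without CD48dim replicate 2 and not without any 1 of the CD34bright, CD41-CD9- or CD48bright libraries. DESeq2 also called Pklr, Ldhd, Hk3, Pgam1 and Pfkm of this list in 1 or more tests. Of all genes it called 0.281% to 13%, depending on the test.

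The level of Eno1 depends on how reads were divided with Eno1b, a copy tagged as a retrogene in the annotation. Their coding sequences are 1302 bases each and differ at 8 bases, with an identical run of 725 bases. The estimate gave Eno1 34.7% and 34.2% of the reads of both in CD34bright, 33.6% and 10.6% in CD41-CD9-, 32.0% and 16.7% in CD48bright, and 19.2% and 9.75% in CD48dim libraries. The deposited posterior SD of this division reached 35.9% of the Eno1 count, in CD48dim replicate 2, and was at most 0.00927% for the other 9 enzymes. With both summed, the level was 385 and 335 CPM in CD34bright, 248 and 205 CPM in CD41-CD9-, 410.1 and 262 CPM in CD48bright, and 343 and 164 CPM in CD48dim. The summed log2 fold change for CD34bright over CD48dim was 0.51 ± 0.41, against 1.60 ± 0.79 for Eno1 as deposited, and for CD41-CD9- over CD48dim it was -0.16 ± 0.41, against 0.36 ± 0.78. The sum was added after the data had been seen. Eno3, the muscle enolase, was at 9.77 to 27.2 CPM.

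**Figure D4:**
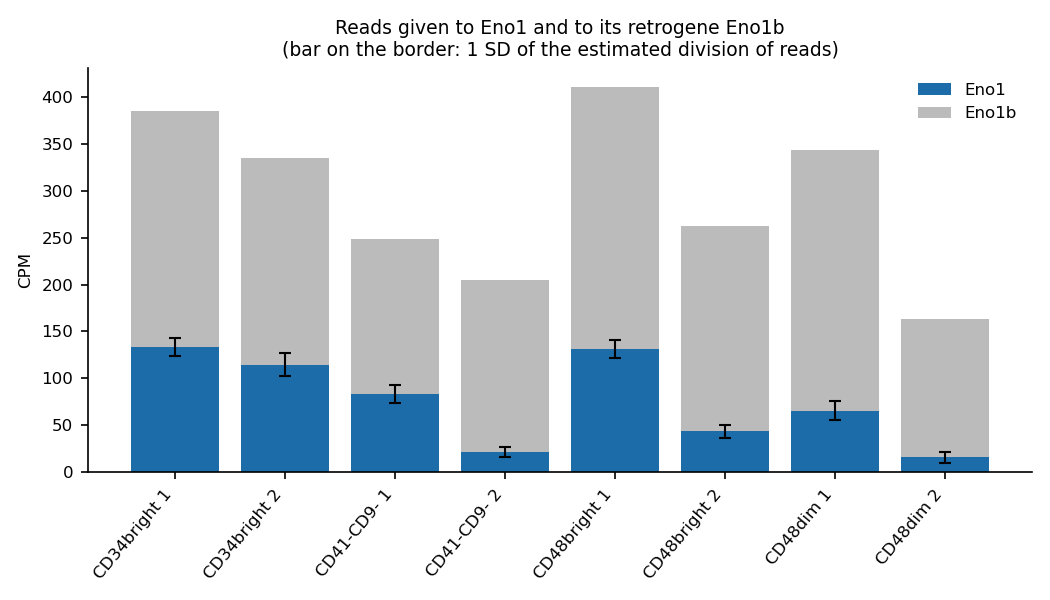
CPM given to Eno1 (lower part) and to Eno1b (upper part) in each library, with 1 posterior SD of the division at their border. Eno1 takes 34.7% and 34.2% of the bar in CD34bright and 19.2% and 9.75% in CD48dim, while the whole bar runs from 164 to 410.1 CPM.

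The 2 libraries of a population differed in the same direction for most enzymes. Replicate 2 was below replicate 1 in all 4 populations for Gpi1, Aldoa, Gapdh, Pgk1, Eno1 and Pkm, and in 3 of 4 for Ldha, but in 2 of 4 for Hk1, Hk2 and Pfkl. The median log2 ratio of replicate 2 to replicate 1 over the 10 enzymes was -0.29 in CD34bright, -0.54 in CD41-CD9-, -0.74 in CD48bright and -1.14 in CD48dim, against -0.0098, -0.0049, -0.012 and -0.14 over all genes tested. The widest gap was that of Aldoa in CD48dim, -2.23. Beside it, the nuclear RNA Malat1 was higher in replicate 2 of every population, with 5004 and 11376 CPM in CD34bright, 9474 and 14867 CPM in CD41-CD9-, 7103 and 12344 CPM in CD48bright, and 10325 and 38947 CPM in CD48dim. Ribosomal protein genes took 9.78% and 6.30% of counts in CD34bright, 6.65% and 5.21% in CD41-CD9-, 8.35% and 5.87% in CD48bright, and 9.36% and 2.38% in CD48dim. The share of the ribosomal RNA gene Rn45s did not go 1 way. It was higher in replicate 2 in CD34bright (6.18% and 9.93%). It was lower in CD41-CD9- (7.24% and 1.86%), CD48bright (6.41% and 0.969%) and CD48dim (4.76% and 0.79%). CD48dim replicate 2 was also the shallowest library. The part of these differences in the enzyme values was not tested.

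**Figure D5:**
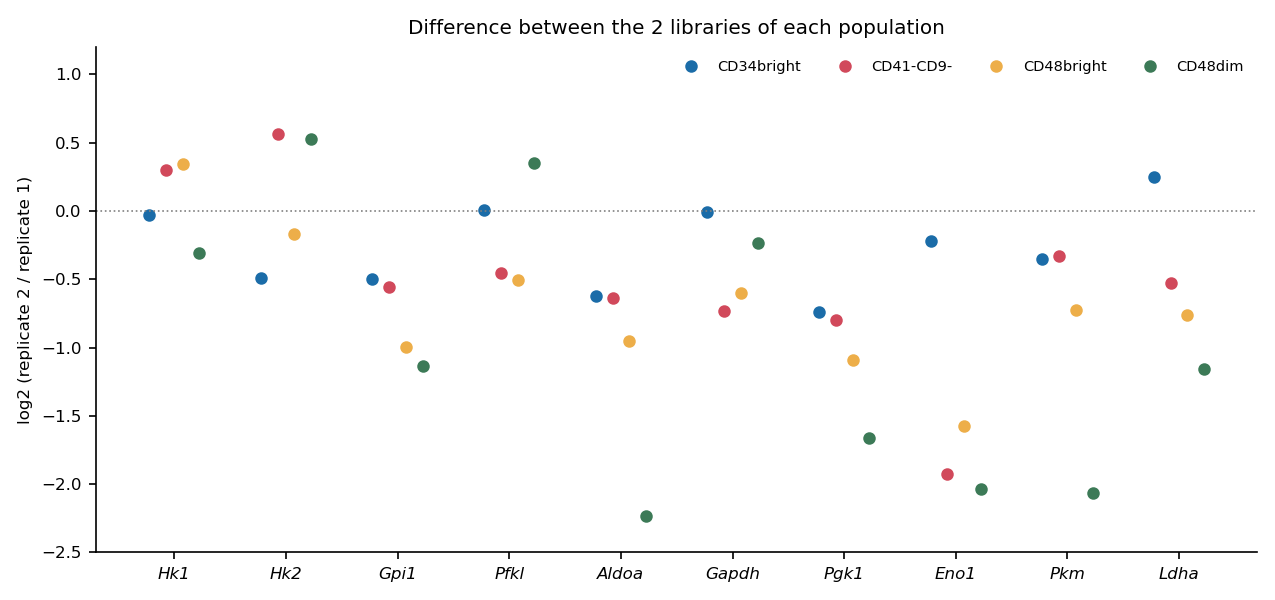
Log2 ratio of replicate 2 to replicate 1 (y axis) for each enzyme, coloured by population. Gpi1, Aldoa, Gapdh, Pgk1, Eno1 and Pkm lie below 0 in all 4 populations, and the CD48dim point of Aldoa lies at -2.23.

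The enzymes did not share 1 profile over the libraries. As a description over 8 libraries that share depth and the difference between replicates, the Pearson correlation of centred log2 CPM with the mean of the other 9 enzymes was 0.95 for Ldha and Gpi1, 0.92 for Eno1, 0.89 for Aldoa, 0.88 for Pgk1, 0.85 for Pkm and 0.74 for Gapdh. It was 0.52 for Pfkl, 0.30 for Hk2 and 0.21 for Hk1, so these genes followed the others least. The other isozymes of their steps, Hk3, Pfkm and Pfkp, were not part of this comparison. Of 9620 candidate genes with a mean of at least 8 CPM outside the lists, the 5 with the profile most like the mean of the 10 were Sssca1 (r = 0.986), Mtfr1l, Srm, Vkorc1 and Tmem97 (r = 0.980). Srm, which encodes spermidine synthase, was at 167 and 174 CPM in CD34bright, 84.3 and 41.5 CPM in CD41-CD9-, 155 and 87.3 CPM in CD48bright, and 108 and 40.0 CPM in CD48dim.

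Genes that bring glucose in, carry lactate out or regulate the pathway gave 1 call. Of 16 listed, 15 were tested, and edgeR called Fbp1, the gluconeogenic enzyme that reverses the phosphofructokinase step. That call was for CD41-CD9- over CD48dim, where 4.02% of all genes were called. Fbp1 was lower in CD41-CD9- cells, at 0.472 and 0.565 CPM, against 13.4 and 14.6 CPM in CD48dim cells (log2 fold change -4.73 ± 0.86, edgeR adjusted p = 0.0198). The call was lost without CD41-CD9- replicate 1, without CD41-CD9- replicate 2 and with the 4 libraries alone (adjusted p up to 0.185). DESeq2 also called Pfkfb2, Slc2a6 and Txnip in 1 or more tests, with 0.281% to 13% of all genes depending on the test. The glucose transporter genes Slc2a1 and Slc2a3 were at 18.1 to 34.2 CPM and 40.6 to 136 CPM, and neither was called in any pair. The lactate carrier gene Slc16a1 was at 107 and 62.0 CPM in CD34bright, 44.7 and 41.7 CPM in CD41-CD9-, 122 and 52.4 CPM in CD48bright, and 58.9 and 29.1 CPM in CD48dim. Slc16a3, which encodes the other lactate carrier listed, stayed between 1.51 and 5.19 CPM.

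At the entry of pyruvate into the mitochondrion, 12 of 13 listed genes were tested. EdgeR called 1, for CD41-CD9- over CD48dim, with 4.02% of all genes. DESeq2 called 3, Pdha1, Pdk2 and Pdk3, for CD34bright over CD48dim, with 9.77% of all genes. Pdha1, a catalytic subunit of pyruvate dehydrogenase, was higher in CD41-CD9- cells, at 145 and 173 CPM, against 58.4 and 53.3 CPM in CD48dim cells (log2 fold change 1.51 ± 0.31, edgeR adjusted p = 0.0322). The call was made in 7 of 14 alternatives, not with the 4 libraries alone and not without any 1 of the CD34bright, CD41-CD9- or CD48bright libraries (adjusted p up to 0.229). CD34bright (179 and 139.7 CPM) and CD48bright (185 and 151 CPM) libraries were also above CD48dim, without a call (edgeR adjusted p = 0.0661 and 0.0878). Both CD48dim libraries were thus the lowest of the 8. Pdk1, the kinase that restrains pyruvate dehydrogenase, was at 62.2 to 96.5 CPM and was not called. All 7 pentose phosphate genes were tested and edgeR called 0 of them in each of the 7 tests, with 0 or 1 at an unadjusted p below 0.05. DESeq2 called 1, G6pdx, for CD41-CD9- over CD48dim, with 11.7% of all genes, and limma-voom called 0.

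Of the 21 hypoxia response genes outside glycolysis 18 were tested, and edgeR called 0 in each of the 7 tests, with 0 to 3 at an unadjusted p below 0.05. DESeq2 called 2 for CD34bright over CD48dim (Bnip3 and Egln3), with 9.77% of all genes. It called 2 for CD41-CD9- over CD48dim (Egln1 and Ndrg1), with 11.7% of all genes, and limma-voom called 0. Their median log2 fold changes stayed between -0.18 and 0.04 over the 6 pairs. Hif1a, which encodes the oxygen-regulated subunit of hypoxia-inducible factor, was at 62.7 to 100.4 CPM. Of the 8 Myc family genes, all tested, edgeR called 1, Mycl, at 34.9 and 15.7 CPM in CD41-CD9- cells and without a count in both CD48dim libraries, at least 176-fold higher in CD41-CD9- with 3 counts over the group as the floor (edgeR adjusted p = 0.00939). Without CD41-CD9- replicate 1 this call was lost (adjusted p = 0.0644) and the bound is 109-fold. In this pair, CD41-CD9- over CD48dim, edgeR called 4.02% of all genes. DESeq2 called Mycl, Mycn, Mxd1 and Mxd3 there, with 11.7% of all genes. Myc itself was at 594 and 841 CPM in CD34bright, 384 and 445 CPM in CD41-CD9-, 564 and 731 CPM in CD48bright, and 651 and 924 CPM in CD48dim, and no tool called it. Its 2 CD41-CD9- libraries were the lowest of the 8.

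Cell cycle genes gave the most calls of the lists. All 24 were tested, and all 24 had a positive log2 fold change for CD34bright over CD48dim, with a median of 1.61 against -0.07 over all genes tested. The 5 that rose in CD34bright cells over CD48dim were Cdk1 (2.23 ± 0.36, edgeR adjusted p = 0.038), Ccna2 (2.16 ± 0.35), Ccnb1 (2.52 ± 0.33), Ccnb2 (1.75 ± 0.31) and Aurkb (1.93 ± 0.32), kinases and cyclins of cell division. These are 5 of 24, where 0.577% of all genes were called. DESeq2 called 17 of the 24 in this pair, with 9.77% of all genes. Limma-voom called 5, Aurkb, Ccna2, Ccnb1, Kif11 and Top2a, with 0.342% of all genes. It did not call Cdk1 or Ccnb2 (limma-voom adjusted p = 0.0545 and 0.0566). All 5 edgeR calls were lost with the 4 libraries alone and without any 1 of the CD34bright or CD41-CD9- libraries, with adjusted p up to 0.307, while the log2 fold changes stayed between 1.67 and 2.697. Ccnb1, which encodes cyclin B1, was at 181 and 179 CPM in CD34bright, 91.0 and 75.8 CPM in CD41-CD9-, 81.5 and 64.8 CPM in CD48bright, and 27.9 and 35.0 CPM in CD48dim. The 3 that rose in CD41-CD9- over CD48dim were Ccna2 (1.75 ± 0.34), Ccnb1 (1.41 ± 0.32) and Rrm2 (1.84 ± 0.38), a subunit of ribonucleotide reductase, 3 of 24 where 4.02% of all genes were called. These were lost under the same alternatives, with adjusted p up to 0.26. Among the enzymes, Gapdh, Pgk1, Eno1 as deposited and Hk2 had their lowest mean in CD48dim cells. For Hk2 this mean was 45.3 CPM against 45.5 CPM in CD41-CD9- cells. Hk1, Gpi1, Pfkl, Aldoa, Pkm and Ldha had their lowest mean in CD41-CD9- cells, and Hk1 had its highest mean in CD48dim cells.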

How the data were processed

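RNA was measured in 8 libraries, grouped by the sort gates in the labels; the cluster numbers in titles and design text differ and were not used. Per the labels' protocols, 5 ng of total RNA was amplified (Ovation RNA-Seq System V2), and the libraries carry no strand information. The submitters' processing notes name STAR 2.7.2a, RSEM 1.3.2, edgeR 3.30.3 and mm10; the sources used here do not give their settings. Deposited values used are expected counts, TPM and the posterior SD of counts per gene, per the file headers. A second deposited count table per library was not used.

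Expected counts were rounded (at most 2.2% of a library's genes were not whole), filtered with filterByExpr, scaled by TMM and tested with edgeR 4.0.16 (quasi-likelihood, 1 model of 4 populations, 4 residual and 5.46 prior degrees of freedom, biological coefficient of variation 49.8%). The procedure was also run on simulated counts with a smaller spread than these data and larger changes than any enzyme showed. That run therefore does not show which changes would be missed here. The 7 tests, any difference and 6 pairs, were adjusted over 13177 genes. The SE given is approximate, the size of the log2 fold change over the root of its F. R 4.3.3, limma 3.58.1, DESeq2 1.42.0, Python 3.11.15 and Biopython 1.88 were used. Totals of 7237587 to 20632005 counts limit precision by counting error and by 2 libraries per population.

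The enzymes and the 7 gene lists were chosen with earlier results of these data known. All 10 enzymes are named, with their paralogs and the main transporters and regulators; of each list the genes called by edgeR in any of the 7 tests are named, and some called by DESeq2 alone, chosen after their values were seen, and the 5 genes most like the enzymes by Pearson correlation. Alternatives were another scaling, DESeq2, limma-voom, no filter on low counts, a replicate block, the 4 libraries of a pair alone, and each library left out. Gene positions and promoter windows come from RefSeq on GRCm38.p6, coding sequences and the retrogene tag from GENCODE vM21.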

Additional observations from a re-analysis of the deposited data

How the results depend on the processing

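The call of Hk1 for CD41-CD9- over CD48dim was made in 9 of 14 alternatives and kept its sign in all. Of 60 combinations of enzyme and pair, 23 changed sign in some alternative, and the cause was not tested. Numbers of enzymes called, where they moved, were as follows. DESeq2 gave 2 for any difference, 2 for CD34bright over CD41-CD9-, 1 for CD34bright over CD48dim and 1 for CD41-CD9- over CD48bright. No filter on low counts gave 4 (Hk1, Gapdh, Pgk1 and Eno1), 1 (Hk1) and 3 (Gapdh, Pgk1 and Eno1) for the first 3 of these. The replicate block gave 3 (Hk1, Gapdh and Pgk1), 1 (Hk1) and 3 (Gapdh, Pgk1 and Eno1) for the same 3. The 4 libraries compared alone gave 3 for CD34bright over CD41-CD9-, 1 for CD41-CD9- over CD48bright and 0 for CD41-CD9- over CD48dim. Leaving out a library gave 0 to 8 (any difference), 0 to 3 (CD34bright over CD41-CD9-), 0 to 6 (CD34bright over CD48dim), 0 to 1 (CD41-CD9- over CD48bright), 0 to 4 (CD41-CD9- over CD48dim) and 0 to 4 (CD48bright over CD48dim).

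All genes called moved more. For any difference there were 1718 with DESeq2, 141 with limma-voom, 1607 without the filter, 764 with the replicate block and 32 to 3399 with a library left out. For CD34bright over CD41-CD9- these were 624 (DESeq2), 532 (no filter), 266 (replicate block), 1081 (4 libraries alone) and 3 to 772 (a library left out). CD34bright over CD48bright had 37 (DESeq2), 39 (no filter) and 0 to 20. CD34bright over CD48dim had 1288 (DESeq2), 45 (limma-voom), 1018 (no filter), 682 (replicate block), 0 (4 libraries alone) and 0 to 3911. CD41-CD9- over CD48bright had 366 (DESeq2), 301 (no filter), 99 (replicate block), 307 (4 libraries alone) and 0 to 435. CD41-CD9- over CD48dim had 1536 (DESeq2), 1191 (no filter), 965 (replicate block), 129 (4 libraries alone) and 81 to 3295. CD48bright over CD48dim had 759 (DESeq2), 5 (limma-voom), 588 (no filter), 178 (replicate block), 0 (4 libraries alone) and 4 to 3211.

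Log2 fold changes that changed sign were as follows. For CD41-CD9- over CD48dim, Hk2 was -0.0076 with the other scaling and -0.0069 with DESeq2, Aldoa was 0.12 with limma-voom and 0.10 with the replicate block, and Eno1 was -0.16 with Eno1b added. Leaving out single libraries, the following combinations crossed 0. For CD34bright over CD48bright they ran from -0.33 to 0.67 for Gpi1, -0.17 to 0.78 for Aldoa, -0.20 to 0.89 for Pgk1, -0.33 to 0.19 for Hk2, -0.21 to 0.13 for Hk1, -0.081 to 1.501 for Eno1 and -0.047 to 0.68 for Pkm. For CD41-CD9- over CD48dim they ran from -0.90 to 1.73 for Eno1, -0.30 to 0.30 for Hk2, -0.88 to 1.36 for Aldoa, -0.60 to 0.56 for Ldha, -0.80 to 0.35 for Gpi1, -1.20 to 0.88 for Pkm and -0.019 to 1.65 for Pgk1. For CD41-CD9- over CD48bright they ran from -0.63 to 0.11 for Gapdh and -2.01 to 0.26 for Eno1. For CD48bright over CD48dim they ran from -0.15 to 1.11 for Gpi1, -0.27 to 1.97 for Aldoa, -0.67 to 1.41 for Pkm, -0.41 to 0.10 for Pfkl and -0.0091 to 1.15 for Ldha. For CD34bright over CD48dim they ran from -0.048 to 2.20 for Aldoa and -0.39 to 1.68 for Pkm.

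Same-numbered libraries deviated together (correlations of 0.11 to 0.22 between populations), but with 2 numbers and no label that says what a number marks, the design does not pair them, and this is a hint from the data. Leaving out 1 library of a population assumes that the lone library varies like the other populations. With 2 libraries per population and a coefficient of variation of 49.8%, an enzyme without a call is not shown to be alike between populations.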
